A study of Homo sapiens with 6 samples.

Results

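The genes described are 10 core components of Notch signalling: the receptors NOTCH1, NOTCH2 and NOTCH3, the ligands JAG1, JAG2, DLL1 and DLL4, the target repressors HES1 and HEY1, and the transcriptional coactivator MAML2. They were found by gene symbol in RNA-seq count tables that list 32029 genes, and each of the 10 symbols matched 1 row. The libraries came from SW480 cells, an established human colorectal adenocarcinoma line of wild-type genotype as labelled, collected 48 h after transfection with a control siRNA (siNC, n = 3) or with siRNA against the transcription factor ZEB1 (siZEB1, n = 3). All 6 cultures were transfected, so both groups carry an siRNA, and no untransfected cells were compared. The comparison asks how transcripts of the Notch pathway differed after knockdown of ZEB1, a repressor of epithelial genes such as CDH1. The sequence of the siRNA and whether it was a single duplex or a pool are not given in the sources used here. A knockdown lowers a transcript in part and does not remove the gene. The study's methods call the samples of a group biological replicates, and p-values measure only the spread between these 6 libraries of a single cell line.

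Notch receptors are transmembrane proteins that are activated by ligands of the Jagged and Delta-like families on neighbouring cells. Ligand binding exposes the receptor to cleavage, first by an ADAM protease and then by gamma-secretase, and the freed intracellular domain enters the nucleus. There it joins the DNA-binding protein RBPJ and a Mastermind-like coactivator and switches on targets such as the HES and HEY repressors. In the intestine, Notch activity is known for keeping crypt cells proliferating and for restraining secretory differentiation. ZEB1 and the miR-200 family are known to repress each other, and some Notch pathway transcripts are known targets of miR-200.

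Library totals ran from 19040636 to 22357633 counts. Replicates of a group differed by more than counting noise, with a chi-square per degree of freedom from 2.27 to 9.58 over pairs, and siNC replicates 1 and 3 were the most unlike pair. ZEB1 was at 58.6, 57.0 and 47.1 CPM (counts scaled to the size of the library) in siNC and at 7.20, 6.86 and 8.46 CPM in siZEB1. Its log2 fold change was -2.85 (SE 0.108), in the direction that the labels give, and CDH1 was higher by 4.01 on the log2 scale. Colon epithelial markers gave a summed level of 4759 to 5385 CPM in siNC and of 4892 to 5542 CPM in siZEB1, nearly all of it from KRT8 and KRT18. Other genes of that list were called in both directions: CDX2, an intestinal transcription factor, was lower (102.5 ± 7.08 to 41.8 ± 2.66 CPM), and KRT19 (72.3 ± 1.19 to 223 ± 17.1 CPM) and VIL1 (4.08 ± 0.50 to 20.7 ± 1.49 CPM, SD, n = 3 each) were higher. The intestinal markers CDH17 and LGALS4 were too low to test, and CDX1 was not listed. Summed leukocyte markers stayed at or below 1.67 CPM, endothelial markers at or below 2.95 CPM and fibroblast markers at or below 15.2 CPM, the last mostly from COL1A1. PTPRC, CDH5, KDR and DCN, which define these cell types, were not listed. Of the fibroblast list, PDGFRB was called higher (3.98 ± 0.31 to 5.33 ± 0.22 CPM, SD, n = 3 each), and COL1A1 was not called.

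Of the 10 Notch genes, 3 were lower in siZEB1 than in siNC (NOTCH1, NOTCH2 and JAG1) and 1 was higher (DLL4), at an adjusted p below 0.05 in edgeR's quasi-likelihood test. Against a background of 40.2% of 14996 tested genes called in either direction, 21.2% lower and 19% higher, the 4 of 10 called members are no larger a share than that of all genes. The median log2 fold change was -0.18 over the 10 members and -0.0055 over all tested genes. In 5 members the siNC and siZEB1 libraries did not overlap, where 49.5% of tested genes showed no overlap. All 10 passed the filter on low counts. In bulk libraries such as these, fewer cells with a transcript and less of it per cell cannot be told apart. The members differed widely in level, so that DLL1 was counted with 3 to 18 reads in a library and NOTCH2 with 3266 to 6315.

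**Figure D1:**
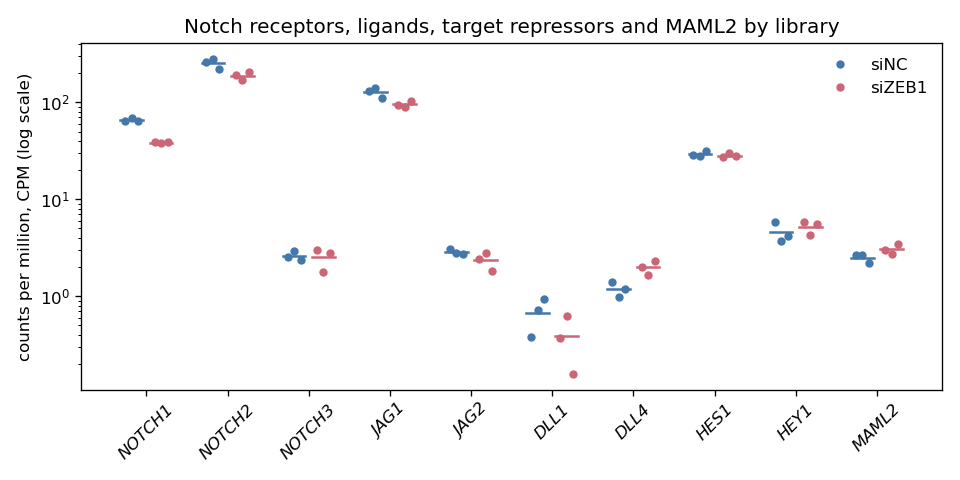
Level of each of the 10 Notch genes in each library, in CPM on a log axis; points are libraries and horizontal bars are group means of 3 libraries. NOTCH1, NOTCH2 and JAG1 were lower in all 3 siZEB1 libraries, DLL4 and MAML2 were higher in all 3, and in the other 5 genes the groups overlap.

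NOTCH1 (GRCh38 chr9:136494433-136545786, minus strand) had the largest called fall of the 10 members. Its level was 64.1, 68.9 and 64.4 CPM in siNC and 38.7, 38.1 and 38.8 CPM in siZEB1. The groups lie far apart, and the siZEB1 libraries agree closely with each other. In the test its log2 fold change was -0.77 (SE 0.068, 95% interval -0.92 to -0.63, adjusted p = 1.38e-07), so that the level fell by 41.4%. Leaving out any 1 library moved it only between -0.79 and -0.74.

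NOTCH2 (chr1:119911553-120069626, minus strand) was the most abundant receptor. It was counted at 260, 282 and 221 CPM in siNC and at 192, 170 and 205 CPM in siZEB1. Its lowest siNC library, replicate 3, lies just above its highest siZEB1 library, also numbered 3. Its log2 fold change was -0.43 (SE 0.083, 95% interval -0.60 to -0.25, adjusted p = 0.00056), and the level fell by 25.6%. Without 1 library the log2 fold change ran from -0.52 to -0.35. The partial paralogs NOTCH2NLA, NOTCH2NLB and NOTCH2NLC share sequence with NOTCH2, so reads could be split between them. They held 5 to 18 reads together in a library, from 0.127% to 0.386% of the NOTCH2 count. How reads that match both were treated is not given in the sources used here, and their part in the result was not tested.

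NOTCH3 (chr19:15159038-15200981, minus strand) was scarce, at 2.54, 2.90 and 2.33 CPM in siNC and 3.02, 1.77 and 2.82 CPM in siZEB1. The siZEB1 libraries lie on both sides of the siNC libraries. A log2 fold change of -0.04 (95% interval -0.50 to 0.42) did not pass the test, and it turned to 0.05 without siNC replicate 2 and to 0.17 without siZEB1 replicate 2. The interval still allows a fall as large as that of NOTCH2. NOTCH4, the remaining receptor, was counted with 11 to 22 reads in a library (log2 fold change 0.30, 95% interval -0.47 to 1.06), a value that was -0.02 without siZEB1 replicate 2.

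Shares of the receptors are given as a description, and they depend on the exon length used for each gene. Per kilobase of exon, NOTCH1 made up 28.1%, 27.9% and 31.5% of the summed level of the 4 receptors in siNC and 24.0%, 26.1% and 22.9% in siZEB1. NOTCH2 went from 69.2% ± 2.1 to 73.4% ± 1.6 and NOTCH3 from 1.26% ± 0.035 to 1.75% ± 0.37 (SD, n = 3 each), with no overlap between groups for any of the 3. The share of NOTCH3 depends on the levels of NOTCH1 and NOTCH2, and its own level was not called. Within a library, the log2 ratio of NOTCH1 to NOTCH2 reads was -1.94 ± 0.14 in siNC and -2.29 ± 0.12 in siZEB1 (SD, n = 3 each). The 2-sided exact permutation p was 0.1, the smallest that 3 against 3 libraries can give, and 0.16 after Benjamini-Hochberg adjustment over 8 ratios. These ratios were picked after the counts had been seen, and no ratio could pass the threshold at this sample size.

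**Figure D2:**
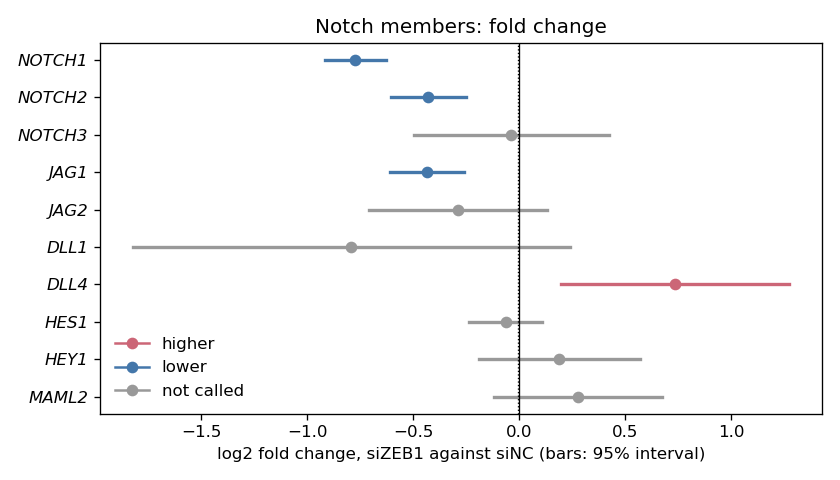
Log2 fold change of siZEB1 against siNC for the 10 members (points) with 95% intervals (bars), coloured by the call at an adjusted p below 0.05; the dotted line is the median of all tested genes. The intervals of NOTCH1, NOTCH2 and JAG1 lie below 0, that of DLL4 lies above 0, and the widest, of DLL1, runs from -1.82 to 0.24.

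JAG1 (chr20:10637684-10673999, minus strand), a Jagged ligand, was by far the most abundant of the ligands. It was at 131, 142 and 112 CPM in siNC and at 94.0, 89.3 and 102 CPM in siZEB1. As for NOTCH2, siNC replicate 3 was the lowest control and siZEB1 replicate 3 the highest knockdown library, and the groups did not overlap. The log2 fold change was -0.43 (SE 0.082, 95% interval -0.61 to -0.26, adjusted p = 0.00043), and the level fell by 25.9%. The log2 fold change ran from -0.52 to -0.36 when 1 library was left out.

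JAG1 and NOTCH2 followed each other from library to library. The log2 ratio of JAG1 to NOTCH2 reads was -0.989, -0.988 and -0.981 in the siNC libraries and -1.03, -0.928 and -1.01 in the siZEB1 libraries. The difference between group means was -0.0034, less than the SD of 0.055 among siZEB1 libraries. Both genes are long by the union of annotated exons, at 9.30 kb and 16.8 kb, as is NOTCH1 at 10.4 kb. A single transcript can be shorter than this union. The 3722 longest tested genes, with at least 7.07 kb of exon each, had a median deviation from their own mean over libraries of 0.051, 0.051 and -0.036 (log2) in siNC replicates 1 to 3 and of -0.026, -0.058 and 0.035 in siZEB1 replicates 1 to 3. NOTCH2 and JAG1 varied more widely, from -0.20 to 0.16 and from -0.19 to 0.15 around their siNC mean over the siNC libraries. In order, though not in size, JAG1, NOTCH2 and the long genes were alike. For all of them siNC replicate 3 was the lowest control and siZEB1 replicate 2 the lowest knockdown library. NOTCH1 did not share this order among controls: it was lowest in siNC replicate 1 (64.1 CPM, against 64.4 CPM in replicate 3). Its siZEB1 libraries differed little (38.7, 38.1 and 38.8 CPM). Across groups the median log2 fold change of these long genes was -0.03, far smaller than the changes in NOTCH2 and JAG1. The part of exon or transcript length in the spread of NOTCH2 and JAG1 was not tested.

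**Figure D3:**
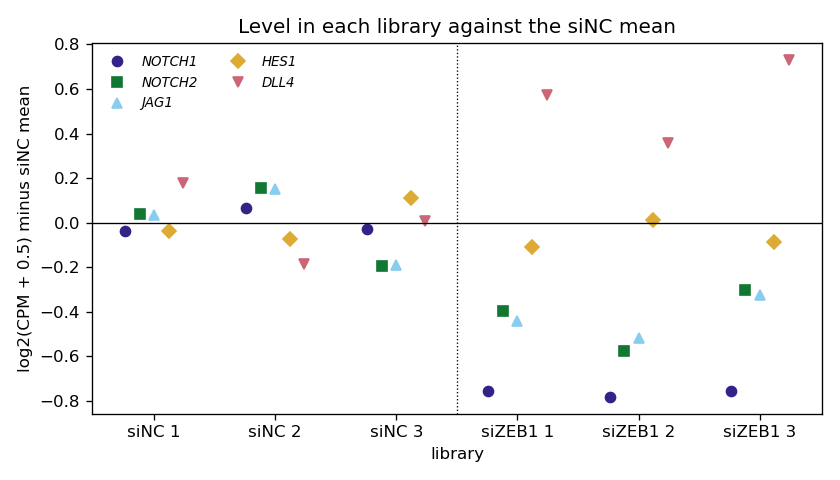
Level of NOTCH1, NOTCH2, JAG1, HES1 and DLL4 in each library as log2(CPM + 0.5) minus the mean of the 3 siNC libraries. NOTCH2 and JAG1 sit side by side in every library, NOTCH1 lies between -0.78 and -0.75 in the siZEB1 libraries, and HES1 stays between -0.11 and 0.11.

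DLL4 (chr15:40929333-40939073, plus strand), a Delta-like ligand best known from sprouting blood vessels, was the only called member that was higher in siZEB1. It was counted with 30, 22 and 23 reads in siNC and with 38, 32 and 44 reads in siZEB1. That is 1.41, 0.982 and 1.19 CPM against 2.01, 1.66 and 2.30 CPM, and every siZEB1 library was above every siNC library. The log2 fold change was 0.74 (SE 0.25, 95% interval 0.20 to 1.27, adjusted p = 0.029 in edgeR's quasi-likelihood test), an increase of 66.6%. The call rests on few reads: edgeR's adjusted p was 0.11 without siNC replicate 2 (log2 fold change 0.61), 0.069 without siZEB1 replicate 1 (0.73) and 0.11 without siZEB1 replicate 3 (0.62), and DESeq2 gave 0.063 (0.75).

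JAG2 and DLL1 did not pass the test. JAG2 (chr14:105140981-105168824, minus strand) was at 3.06, 2.77 and 2.75 CPM in siNC and at 2.44, 2.76 and 1.83 CPM in siZEB1. Its siZEB1 replicate 2 lies inside the range of siNC, and the log2 fold change was -0.29 (95% interval -0.71 to 0.13). AL512356.1, on the same strand, covers 7.33% of the exonic bases of JAG2, so its count could depend on how shared reads were assigned. DLL1 (chr6:170282206-170306565, minus strand) was counted with 8, 16 and 18 reads in siNC and with 7, 12 and 3 reads in siZEB1, and at this depth an interval from -1.82 to 0.24 around its log2 fold change of -0.79 leaves the direction undetermined. Its value was -1.33 without siZEB1 replicate 2, -0.51 without siNC replicate 3 and -0.42 without siZEB1 replicate 3. DLL3, a divergent ligand outside the 10, was at 5.78, 7.19 and 8.51 CPM in siNC and 5.40, 6.92 and 3.92 CPM in siZEB1. Its log2 fold change was -0.40 with an adjusted p of 0.095 in edgeR, which became 0.032 without siNC replicate 1 (-0.53), 0.019 without siZEB1 replicate 2 (-0.62) and 0.033 with no filter on low counts. It became 0.24 without siNC replicate 3 (-0.27) and 0.36 without siZEB1 replicate 3 (-0.21).

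Among the 5 canonical ligands together, JAG1 accounted for 74.1% to 82.0% of the summed level per kilobase of exon in siNC and for 72.6% to 82.6% in siZEB1. DLL4 took 1.72%, 1.09% and 1.54% in siNC and 3.23%, 2.64% and 3.63% in siZEB1, and its share was the only ligand share whose groups did not overlap. The log2 ratio of DLL4 to JAG1 reads went from -6.76 ± 0.36 to -5.59 ± 0.14 (SD, n = 3 each, exact permutation p = 0.1, adjusted 0.16).

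HES1 (chr3:194136145-194138732, plus strand), the classical Notch target in intestinal crypts, was at 28.7, 27.9 and 31.9 CPM in siNC and at 27.3, 29.7 and 27.7 CPM in siZEB1. The groups overlap, and the log2 fold change of -0.06 (SE 0.081) did not pass the test. Its 95% interval, from -0.24 to 0.11, excludes a fall as large as the estimate for NOTCH1, NOTCH2 or JAG1. HES1 was counted with 515 to 626 reads in a library, so depth was not what limited this comparison. HEY1, a related repressor, was at 5.83, 3.71 and 4.20 CPM in siNC and at 5.83, 4.26 and 5.59 CPM in siZEB1. Both groups span a similar range, and the log2 fold change was 0.19 (95% interval -0.19 to 0.57).

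The HES1 promoter is shown because it carries the core letters of the RBPJ motif, TGGGAA, in close repeat. RefSeq promoters, 250 bases before and 50 after a start site (GRCh38.p14), were found for 8 of the 10 members, and DLL1 and HEY1 had none. TGGGAA or its reverse complement TTCCCA lies in the promoter of HES1 alone among the 8, and in 24.0% of all 35116 promoters. In HES1 it occurs in 2 copies whose first bases are at -84 and -70 from the start, shown in capitals (chr3:194136060-194136089, plus strand).
HES1 promoter: actgTGGGAAagaaagttTGGGAAgtttca
The E-box that ZEB1 binds, CAGGTG or its reverse complement CACCTG, was found in the promoter of JAG2 alone, at -36 from the RefSeq start (chr14:105168795-105168824, minus strand, capitals), and in 20.6% of all promoters. The JAG2 gene as annotated in GENCODE begins further upstream, at 105168824, so this window lies within that gene.
JAG2 promoter: ctcatgcatatgCAGGTGcgcgggtgacga
A match describes letters and is not a bound site. The called members NOTCH1, NOTCH2, JAG1 and DLL4 held neither sequence in these windows, which says nothing of elements elsewhere in their genes. For NOTCH1 the whole window (chr9:136545999-136546298, minus strand) lies upstream of the start annotated in GENCODE, at 136545786.

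MAML2 (chr11:95976598-96343180, minus strand), a Mastermind-like coactivator of the RBPJ complex, was at 2.63, 2.68 and 2.18 CPM in siNC and at 2.97, 2.70 and 3.45 CPM in siZEB1. All 3 siZEB1 libraries were above all siNC libraries, narrowly so for the closest pair, and the log2 fold change of 0.28 (SE 0.19, 95% interval -0.12 to 0.68, adjusted p = 0.26 in edgeR) did not pass the test. Of its exonic bases, 8.97% overlap genes on the opposite strand, whose reads cannot be told apart where strand was not used in counting. Its relatives gave other values. MAML1, at 140 ± 9.25 CPM in siNC and 138 ± 6.24 CPM in siZEB1 (SD, n = 3 each), had a log2 fold change of -0.03 (95% interval -0.17 to 0.11) that was 0.02 without siNC replicate 2 and 0.0065 without siZEB1 replicate 2. MAML3 fell from 10.1, 9.15 and 6.17 CPM to 4.56, 4.58 and 5.49 CPM, and edgeR's adjusted p was 0.0010 for its log2 fold change of -0.80 (SE 0.17). The log2 ratio of MAML2 to MAML3 reads was accordingly -1.74 ± 0.22 in siNC and -0.68 ± 0.071 in siZEB1 (SD, n = 3 each, exact permutation p = 0.1, adjusted 0.16).

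Per kilobase of exon, NOTCH2, HES1 and JAG1 were the highest members in siNC, at 15.1 ± 1.84, 14.3 ± 1.0 and 13.8 ± 1.64 CPM per kilobase, and these neighbours in the order overlap. NOTCH1 followed at 6.34 ± 0.25 and HEY1 at 1.42 ± 0.34, each clear of its neighbours. JAG2 at 0.447 ± 0.027, MAML2 at 0.351 ± 0.039, NOTCH3 at 0.276 ± 0.031, DLL4 at 0.251 ± 0.045 and DLL1 at 0.209 ± 0.087 made up the low end, where only JAG2 was clear of the next (SD, n = 3 for each). In siZEB1, HES1 headed the order at 13.7 ± 0.63, above NOTCH2 at 11.3 ± 1.07 and JAG1 at 10.2 ± 0.70, which overlap each other. DLL4, at 0.418 ± 0.067, stood seventh in place of ninth and overlapped MAML2 above it and JAG2 below it. The order between genes depends on the length used. Here that was the union of all annotated exons, which can be longer than a single transcript.

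The miR-200 family is shown for its seeds (bases 2 to 8, in capitals), because its matches in the 3′UTRs of Notch genes can be counted from sequence although the mature RNAs were not measured in these libraries. The family falls into a pair of seed groups, and within each group the seeds are identical (RefSeq, GRCh38.p14).
hsa-miR-200b-3p: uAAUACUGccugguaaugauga
hsa-miR-200c-3p: uAAUACUGccggguaaugaugga
hsa-miR-429: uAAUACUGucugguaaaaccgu
hsa-miR-200a-3p: uAACACUGucugguaacgaugu
hsa-miR-141-3p: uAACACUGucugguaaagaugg
MIR200CHG, the host gene of miR-200c and miR-141, had 1 read over all 6 libraries. The site for the first group, CAGTATT, lies once in the 3′UTR of NOTCH1 and once in that of JAG2, which is 2 of 10 members against 16.5% of 12183 tested genes with an annotated 3′UTR. The site for the second group, CAGTGTT, lies once in NOTCH2 and once in NOTCH3, against 18.2% of genes. The shares in the members are close to these backgrounds. JAG1, DLL1, DLL4, HES1, HEY1 and MAML2 held neither 7-mer in the transcript read. Only matches to bases 2 to 8 were searched, so other kinds of site are not covered. The sites are printed with the match in capitals, each on the minus strand of GRCh38 (NOTCH1 chr9:136495318-136495347, JAG2 chr14:105141901-105141930, NOTCH2 chr1:119911992-119912021, NOTCH3 chr19:15159617-15159646).
NOTCH1 site: ttgtttcaggttCAGTATTatgtagttgtt
JAG2 site: ctgggacggcggCAGTATTgaagctcgtga
NOTCH2 site: tccatggcctggCAGTGTTacctcatgatg
NOTCH3 site: atagttaacactCAGTGTTgttggtctgtg
Over all tested genes the median log2 fold change was 0.0025 with CAGTATT and -0.01 without it, and -0.0082 with CAGTGTT and -0.01 without it.

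A further 7-mer, GAACACA, was counted because earlier results of these data had found it in the 3′UTRs of strongly lowered genes. It lies once in the 3′UTR of NOTCH2 and once in that of MAML2, and in none of the other 8 members. Of tested genes, 10.7% held it, with a median log2 fold change of -0.23 against 0.0065 in genes without it. It was in 20.2% of genes called lower, 6.28% of those called higher and 8.20% of those not called. Genes with it had longer 3′UTRs (median of 2850 bases against 865), so genes were also split by 3′UTR length. At 1 to 384 bases the median log2 fold change was -0.59 with the 7-mer and -0.0070 without it. At 384 to 998 bases the medians were -0.39 and 0.010, and at 998 to 2267 bases -0.33 and 0.00097. At 2267 to 32870 bases they were -0.15 and 0.026. Since the 7-mer was picked from these same data, all these values are a description and no test of it. The site is shown for both members in capitals, on the minus strand (NOTCH2 chr1:119914233-119914262, MAML2 chr11:95977423-95977452).
NOTCH2 7-mer: actgcctgtatgGAACACAtttgtcccaga
MAML2 7-mer: ttcaaagaaaaaGAACACActttgaaaatt
NOTCH2 was called lower and MAML2 was not, while NOTCH1 and JAG1 were called lower without the 7-mer. Its part in the result for NOTCH2 was not tested.

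The genes that act on or beside these members were read from 7 lists with 66 genes, of which 64 were listed and 59 tested. Of the 59, 7 were higher and 20 lower in siZEB1, with a median log2 fold change of -0.14. The share called, 45.8%, is near the 40.2% of all genes, of which 19% were higher and 21.2% lower. Values above 0 numbered 18 and those below 41, against 7407 and 7589 over all tested genes, and no test of the lists as sets was made. The 7-mer GAACACA lies in 4 of the 20 lower genes (AAK1, ADAM10, EP300 and NCOR1), in none of the 7 higher and in 2 of the 32 not called (DTX4 and NUMB), and its part in these values was not tested.

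**Figure D4:**
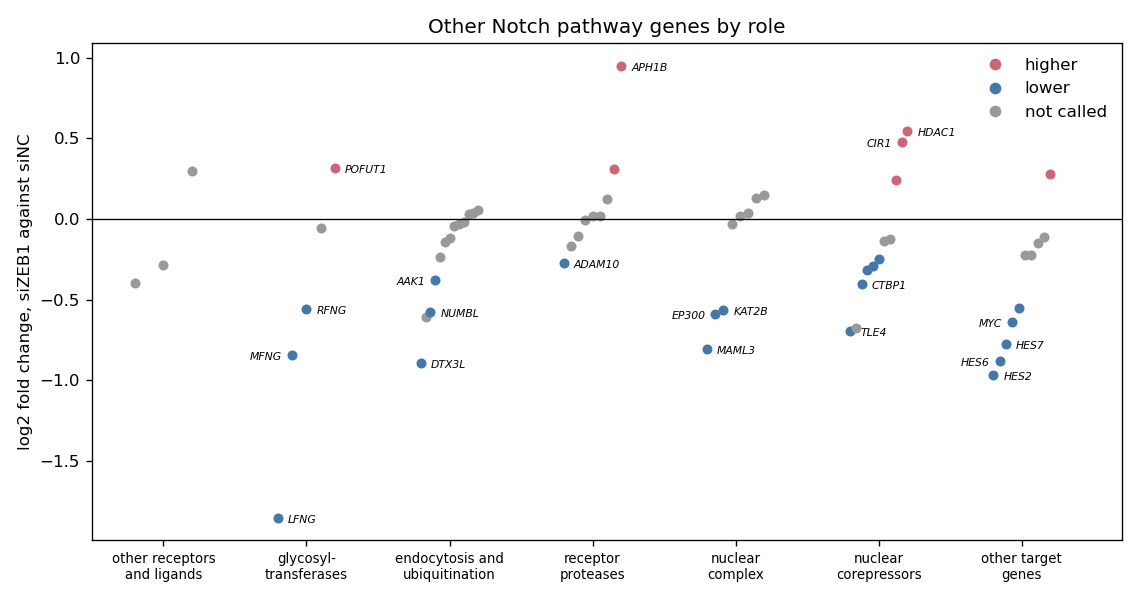
Log2 fold change of siZEB1 against siNC for the 59 tested genes of 7 Notch pathway lists, by role; colours give the call at an adjusted p below 0.05 and up to 4 called genes per list are named. LFNG has the lowest value, at -1.85, and APH1B the highest, at 0.95.

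The glycosyltransferases that modify Notch receptors held the largest fall in the lists. Of 5 tested, 3 were lower and 1 higher (80% called, against 40.2% of all genes). The Fringe enzymes add sugars that shift a receptor's preference between Delta-like and Jagged ligands, and all of them were called lower. LFNG was counted with 79, 107 and 85 reads in siNC and with 18, 22 and 28 in siZEB1. That is 3.71, 4.78 and 4.41 CPM against 0.953, 1.14 and 1.46 CPM, with every siZEB1 library far below every siNC library. The log2 fold change was -1.85 (SE 0.21, adjusted p = 2.82e-06 in edgeR), and the level fell by 72.4%. RFNG was lower as well, by -0.56 on the log2 scale, with means of 12.8 ± 2.81 CPM in siNC and 8.68 ± 0.14 CPM in siZEB1 (SD, n = 3 each), but 21.6% of its exonic bases lie opposite exons of GPS1. MFNG, at -0.84 with an edgeR adjusted p of 0.039, rests on 11 to 41 reads in a library. Its adjusted p was 0.17 without siNC replicate 2 (-0.67), 0.058 without siNC replicate 3 (-0.85), 0.16 without siZEB1 replicate 1 (-0.64), 0.079 without siZEB1 replicate 3 (-0.84) and 0.084 in DESeq2. POFUT1, which attaches the fucose that Fringe enzymes extend, was higher, at 159, 163 and 144 CPM in siNC and 188, 192 and 201 CPM in siZEB1 (log2 fold change 0.32, SE 0.063). POGLUT1 was not called.

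Of 13 tested genes for endocytosis and ubiquitination of ligands and receptors, 3 were lower and none higher. That is 23.1% called, against 40.2% of all genes, of which 21.2% were lower and 19% higher. DTX3L, of the Deltex ubiquitin ligases, had the largest change, from 13.5 ± 1.20 to 7.27 ± 0.89 CPM (SD, n = 3 each, log2 fold change -0.90). NUMBL, a relative of the Notch inhibitor NUMB, was at -0.58 and AAK1, a kinase of clathrin-mediated endocytosis, at -0.38. MIB1, the ligase needed in the ligand-sending cell, was not called (-0.03).

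Among 9 receptor proteases, 2 were higher and 1 lower (33.3% called, against 40.2% of all genes). APH1B, a subunit of gamma-secretase, was at 1.27, 1.25 and 1.04 CPM in siNC and at 2.75, 2.18 and 1.99 CPM in siZEB1, with no overlap between groups (log2 fold change 0.95, SE 0.24). ADAM10, the protease that first cuts ligand-bound receptors, was called lower at -0.27 with an adjusted p of 0.012 in edgeR, although its groups overlap. Its adjusted p was 0.055 without siNC replicate 1 (-0.22), 0.073 without siZEB1 replicate 1 (-0.24) and 0.064 without siZEB1 replicate 2 (-0.23).

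In the nuclear complex, 3 of 8 tested genes were lower and none higher (37.5% called, against 40.2% of all genes). RBPJ itself, the DNA-binding subunit, was at 92.6, 87.3 and 79.6 CPM in siNC and at 84.9, 82.2 and 95.5 CPM in siZEB1. The groups overlap, and the log2 fold change of 0.02 (95% interval -0.14 to 0.18) was -0.04 without siNC replicate 3 and -0.05 without siZEB1 replicate 3. Beside MAML3, the acetyltransferases EP300, at -0.59 (SE 0.079), and KAT2B, at -0.56 (SE 0.14), were lower.

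Of 11 tested corepressors, 8 were called (72.7%, against 40.2% of all genes), 3 higher and 5 lower. HDAC1, a histone deacetylase of several corepressor complexes, was higher, from 106 ± 4.28 to 155 ± 3.79 CPM (SD, n = 3 each, log2 fold change 0.55), and so was CIR1, which links RBPJ to deacetylases, at 0.48. TLE4, a Groucho-type corepressor used by HES proteins, was lower at -0.69, and CTBP1 at -0.40, with 13.3% of its exonic bases opposite other genes.

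The other target genes gave 5 lower and 1 higher of 10 tested, where 21.2% of all genes were lower and 19% higher. HES2, HES6 and HES7, relatives of HES1, were lower at -0.97 (SE 0.20), -0.88 (SE 0.12) and -0.77 (SE 0.10). HES6 is known as an antagonist of HES1 rather than a classical target. MYC, a growth regulator with many other inputs, was at 508, 521 and 526 CPM in siNC and at 343, 333 and 321 CPM in siZEB1. The groups lie well apart, with a log2 fold change of -0.64 (SE 0.053). CCND1, at -0.55 (SE 0.054), and NRARP, at 0.28 (SE 0.070), were the remaining calls, and both are named after their values were seen. NRARP, a feedback inhibitor induced by Notch, was at 39.6, 39.5 and 40.7 CPM in siNC and at 50.4, 48.7 and 46.4 CPM in siZEB1, so this target was higher while HES1 was not called. Of 9 markers of intestinal secretory cells, 6 were listed and only GFI1 was high enough to test (log2 fold change -0.11, not called). Secretory differentiation could therefore not be followed from these markers.

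The genes whose levels over the 6 libraries were most like those of NOTCH1, relative to the siNC mean, were TRIM14, ZNF496 and ST6GAL1, with root mean square differences of 0.0099, 0.028 and 0.029 on the log2 scale. For DLL4 they were GSK3B, NUP62CL and C18orf32, at 0.069, 0.073 and 0.074. Their log2 fold changes were 0.56, 0.57 and 1.07, against 0.74 for DLL4. DLL4 was at 1.20 CPM and C18orf32 at 0.414 CPM in siNC, so the likeness rests on few reads. The added 0.5 CPM shrinks differences at such levels, but hardly those of GSK3B at 55.5 CPM.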

How the data were processed

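RNA-seq was performed on 3 siNC and 3 siZEB1 cultures of SW480 cells. The deposited files hold whole-number read counts per gene for each library. Per the labels' processing notes, the authors used Trimmomatic, HISAT2, SAMtools and featureCounts with hg38, and versions, annotation and strand setting are not given in the sources used here. Library totals were 19040636 to 22357633 counts.

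Counts of genes that passed filterByExpr (14996 of 32029) were scaled by TMM and tested with edgeR 4.0.16 (R 4.3.3) by the quasi-likelihood test, with Benjamini-Hochberg adjustment over all 14996 genes and a threshold of 0.05. The SE is the log2 fold change divided by the square root of F. The script was tested on simulated counts. DESeq2 1.42.0, another scaling, other filters, a replicate block, both thresholds that the study states (1.5-fold with an unadjusted p below 0.05 or 0.001) and leaving out each library were tried as alternatives. Fold changes compare siZEB1 with siNC.

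Coordinates, exon lengths and 3′UTRs (1 coding transcript per gene, with the longest coding part) came from GENCODE 29 on GRCh38, which may differ from the authors' annotation and held 31059 of the 32029 gene identifiers. Levels per kilobase use the union of annotated exons, which can be longer than a single transcript. Orders and shares that compare genes depend on this choice. Promoter and miRNA sequences came from RefSeq. Motifs were searched on both strands of promoters and on the sense strand of 3′UTRs.

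The members and lists were chosen with earlier results of these data known. Besides the 10 members, ZEB1 and CDH1, genes were named by rule: up to 4 called genes of each list with the largest change, RBPJ, MAML1, MAML3, NOTCH4 and DLL3, and for NOTCH1 and DLL4 the 3 genes of the most similar profile (pseudocount of 0.5 CPM). A called gene of the protease list that this rule would name is not reported here.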

Additional observations from a re-analysis of the deposited data

How the results depend on the processing

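Over 12 alternatives, NOTCH1, NOTCH2 and JAG1 stayed called lower, and HES1, HEY1, JAG2 and MAML2 kept their direction and stayed uncalled, as did DLL1 over its 11. DLL4 lost its call with DESeq2 (0.75, adjusted p = 0.063) and in edgeR without siNC replicate 2, siZEB1 replicate 1 or siZEB1 replicate 3. It kept the call in the other fits without 1 library. Over the fits without 1 library, DLL4 had log2 fold changes of 0.61 to 0.87 and edgeR adjusted p of 0.025 to 0.11. NOTCH3 ran from -0.18 to 0.17 without 1 library and changed sign without siNC replicate 2 (0.05) or siZEB1 replicate 2 (0.17). Outside the members, sign changed for RBPJ (-0.049 to 0.066), MAML1 (-0.079 to 0.017) and NOTCH4 (-0.021 to 0.50) over the fits without 1 library. None of these was called in any of those fits.

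Under a threshold of 1.5-fold with p below 0.05 before adjustment, which the study's results state, 2483 genes were called (1081 higher and 1402 lower) against 6035. The members called were then 2, DLL4 and NOTCH1, against 4, and the other pathway genes 13 (1 higher and 12 lower) against 27. The study's methods state p below 0.001 instead. That limit, added after seeing the data, called 1682 genes (678 higher and 1004 lower), 1 member (NOTCH1) and 9 pathway genes, all lower. Both rules add the fold limit, and the further drop under the second comes with its lower p limit. Leaving out 1 library gave 4942 to 6239 genes, 3 to 4 members and 26 to 28 pathway genes. DESeq2 called 5516 genes.

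Replicate numbers gave no sign of pairing. Deviations of equal-numbered libraries correlated at -0.05, -0.09 and -0.20, and those of the other pairs at -0.07 to 0.14. These values cannot show whether cultures were handled in pairs. With the replicate number as a block, 4968 genes, 4 members and 27 pathway genes were called. In that fit ZEB1 and each member kept the call it had without the block. Another E-box search, for CANNTG, found 2 of 8 member promoters (JAG2 and MAML2) against 1 for CAGGTG or CACCTG. Depth limits the scarce members, with 3 to 18 reads in a library for DLL1.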
